A study of Mus musculus with 2 samples.

Results

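The nuclear genes for subunits of the mitochondrial respiratory chain and of the ATP synthase were read on 2 microarrays of mouse liver cells from E12.5 embryos. Members were chosen by name alone. They are the genes whose symbols begin with Nduf (other than the assembly factors named Ndufaf), Uqcr or Atp5, the genes Sdha, Sdhb, Sdhc, Sdhd and Cyc1, and the Cox genes numbered 4 to 8. Only probe sets, the groups of short probes that each read one transcript, with a single annotated symbol were used. This gave 170 probe sets for 83 of the 18193 genes measured, with 36 genes in complex I, 4 in complex II, 9 in complex III, 17 in complex IV and 17 in complex V. Another 10 probe sets name a subunit together with a further gene or pseudogene, among them those for Ndufb4, Ndufa11 and Ndufs6, and were left out.

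Both groups came from wild-type C57Bl6 embryos. The mesothelial array holds RNA of cells sorted by FACS for podoplanin (Pdpn), a surface protein of the mesothelium, the flat epithelium that covers the liver. The other array holds RNA of liver cells, and whether Pdpn-positive cells had been taken out of them is not stated. Each group is 1 array, the number of embryos behind it is not given, and no difference could be tested. The values describe these 2 arrays only, and since both are bulk samples, fewer cells of a type and less RNA per cell cannot be told apart.

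The respiratory chain lies in the inner mitochondrial membrane. Complex I (NADH dehydrogenase) and complex II (succinate dehydrogenase) pass electrons to ubiquinone, complex III passes them to cytochrome c and complex IV (cytochrome c oxidase) to oxygen. Complexes I, III and IV pump protons, and complex V, the ATP synthase, uses their return to make ATP. Most subunits are encoded in the nucleus and a few catalytic ones of complexes I, III, IV and V in mitochondrial DNA. Some subunits of complex IV have tissue forms encoded by separate genes, used in heart and skeletal muscle, lung or testis.

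The labels were checked on marker genes. Pdpn was 38.8-fold brighter in mesothelial cells than in liver cells, Wt1, a transcription factor of coelomic epithelia, read 1994 in mesothelial and 102.0 in liver cells, and all 12 mesothelial markers were 4.19-fold or more brighter in mesothelial cells. Markers of other cell types were above the control level on the mesothelial array too. Summed over each list, 12 hepatocyte markers came to 94474 on the mesothelial array and 65190 on the liver array, and 12 erythroid markers to 30756 and 61194. The 7 megakaryocyte markers came to 16860 and 4573, the 7 macrophage markers to 7011 and 1818, the 7 endothelial markers to 2605 and 1305 and the 7 stellate and mesenchymal markers to 7399 and 1389. These sums are on the deposited scale, on which the median gene was 1.58-fold brighter on the mesothelial array. The median hepatocyte marker was 1.33-fold brighter there, with 8 of the 12 below the shift of the median gene and 4 above it. The hepatocyte sums thus do not show a larger share of hepatocyte RNA on the mesothelial array. Of the 7 endothelial markers 5 were brighter on that array, while Emcn (50.7 against 68.7) and Pecam1 (84.9 against 102.9) were dimmer. The part of these cell types in the values of the respiratory chain genes was not tested. The median probe set read 65.8 on the mesothelial array and 42.3 on the liver array, and these medians served as a floor that at least one of a gene's 2 values had to reach. Bacterial controls with no matching RNA read up to 16.2 and 10.5, which was taken as the control level.

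Most transcripts for respiratory chain subunits differed by less than 2-fold between the arrays. In mesothelial cells 71 of the 83 genes (85.5%) read brighter than in liver cells, as did 77.6% of all genes; above the floor the shares were 85.9% and 84.0%. The difference used here is the mesothelial log2 intensity less the liver one. Its median was 0.52 over the 83 genes and 0.66, or 1.58-fold, over all 18193 genes. Of the 83, 75 reached the floor on both arrays, 3 on one and 5 on neither, and the 5 were Ndufb4, Cox4i2, Cox7a1, Cox8b and Cox8c. The 78 above the floor read from 10.8 to 13192 in mesothelial cells, with a median of 3604, and from 37.8 to 9769 in liver cells, with a median of 2216.

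A gene brighter by 2-fold or more on one array is called here past 2-fold on that side. Among these 78 genes, 10 were past 2-fold on the mesothelial side, against 45.4% of all 12018 genes above the floor, and 1 on the liver side, against 3.83%. The remaining 67 differed by less than 2-fold. The quartiles of the 78 differences were 0.26 and 0.85, compared with 0.29 and 1.59 for all genes above the floor, whose median was 0.90. The median of the 78 was thus 0.38 below that of all genes held to the same floor. The SD between respiratory chain genes was 0.57, and that between all genes above the floor 1.15. Relative to the median of all genes, 1 respiratory chain gene was past 2-fold on the mesothelial side (background 23.1%) and 3 on the liver side (background 9.53%). The one was Cox7c, and the 3 were Uqcrc1, Ndufb10 and Cox7b2.

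The split depended on how the arrays were scaled to each other. It was 1 gene on the mesothelial side and 3 on the liver side once the arrays were centred at their probe set medians (backgrounds 23.9% and 9.26%), and 1 and 6 after quantile normalization (20.7% and 11.1%). It was 1 and 10 after centring on reference genes (16.9% and 14.8%), and 1 and 14 after centring on the hybridisation controls (14.6% and 17.9%), an alternative chosen after seeing the data. Cox7c was the one gene on the mesothelial side in each of the 4. A statement that the chain as a whole read brighter in mesothelial cells therefore holds for the deposited scale only. Other choices moved the split less. It was 11 and 1 with the median over a gene's probe sets (39.1% and 3.82%), 11 and 1 without probe sets that may bind several transcripts (43.4% and 3.98%), 13 and 1 without a floor (36.2% and 4.16%) and 10 and 0 with a floor at the 75th percentile (42.9% and 2.42%).

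**Figure D1:**
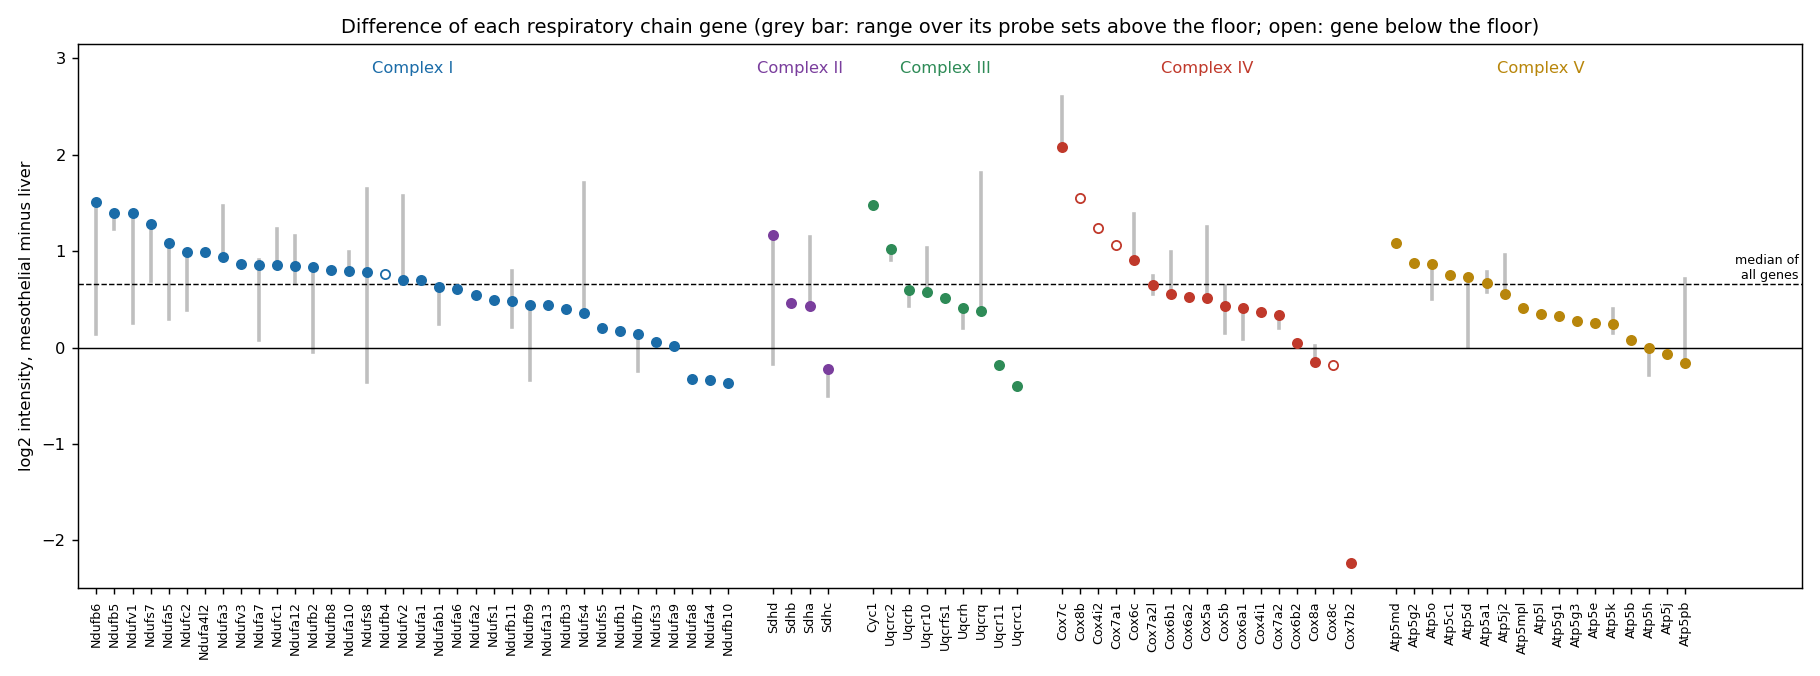
Each point is 1 respiratory chain gene, grouped by complex and sorted, with the log2 difference, mesothelial minus liver, on the vertical axis. Grey bars span the gene's probe sets above the floor, open points are the 5 genes below it, and the dashed line is the median of all genes, 0.66. Most points lie between -0.40 and 1.55, with Cox7c above and Cox7b2 below.

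Complex I had the highest median of the 5 complexes, 0.70 over the 35 of its 36 genes above the floor. On the mesothelial side 5 were past 2-fold (background 45.4%), and 0 on the liver side (background 3.83%). The 6 measured genes for core subunits, most of which carry the flavin or iron-sulphur clusters, had a median of 0.75, and the 29 others above the floor 0.63. Ndufv1, the subunit that binds the flavin and NADH, read 5089 in mesothelial and 1932 in liver cells, 2.63-fold higher. Its 3 probe sets gave differences from 0.26 to 1.40. Ndufs7, a core subunit near the ubiquinone site, read 7214 and 2971, a difference of 1.28. Among the other core genes, Ndufs8 read 3118 and 1805 (0.79), Ndufv2 3558 and 2188 (0.70), Ndufs1 1714 and 1219 (0.49) and Ndufs3 3958 and 3807 (0.06). Ndufs3 was thus nearly equal on the arrays, and the 6 probe sets of Ndufs8 ran from -0.35 to 1.65. Those of Ndufv2 ran from 0.70 to 1.57, the value used being the lowest of its 3. For Ndufs7 the second probe set gave 0.69, below the value used.

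The accessory subunit genes Ndufb6 and Ndufb5 of the membrane arm had the largest differences of complex I. Ndufb6 read 3280 in mesothelial and 1150 in liver cells (1.51), yet its second probe set gave 0.14. Ndufb5 read 5377 and 2040 (1.40), and its second probe set gave 1.23. The accessory subunit gene Ndufa5 completed the 5, at 5659 and 2663 (1.09), with 0.30 from its other probe set. At the lower end, 3 genes with 1 probe set each read dimmer in mesothelial cells. Ndufb10 read 2996 and 3861 (-0.37), Ndufa8 1227 and 1534 (-0.32) and Ndufa4 1567 and 1977 (-0.34). Ndufa4 is named for complex I but has since been placed in complex IV in mammalian cells. Its relative Ndufa4l2, known to be induced in low oxygen, read 75.1 and 37.8 (0.99) and reached the floor on the mesothelial array alone. Ndufa9 read 2415 and 2396. ND5, a proton-pumping subunit of complex I that is encoded in mitochondrial DNA and is not counted among the 83, read 6226 in mesothelial and 4564 in liver cells, a difference of 0.45.

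The 4 genes of complex II, which is also part of the citric acid cycle, differed in direction. Sdha, the flavoprotein, read 3030 in mesothelial and 2244 in liver cells (0.43), and Sdhb, the iron-sulphur protein, 1591 and 1155 (0.46). The other probe set of Sdha above the floor gave 1.15. The membrane anchor gene Sdhd read 2411 and 1071, 2.25-fold higher, while the other anchor gene, Sdhc, read 781.2 and 913.2 (-0.23). The second probe set of Sdhd gave -0.17, so the difference of Sdhd rests on 1 of its 2 probe sets. Both probe sets of Sdhc lay below 0.

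Complex III held genes on both sides. Cyc1, the haem-carrying cytochrome c1, read 2574 in mesothelial and 926.6 in liver cells, 2.78-fold higher, from 1 probe set. The core proteins of the complex parted: Uqcrc2 read 7713 and 3806, 2.03-fold higher, while Uqcrc1 read 889.9 and 1176 (-0.40). Uqcrc1 has 1 probe set, and the 2 of Uqcrc2 gave 0.91 and 1.02. The Rieske iron-sulphur protein gene Uqcrfs1, a catalytic subunit, read 2034 and 1423 (0.52). Among the small subunits, Uqcr11 read 1019 and 1158 (-0.18), and Uqcrh, the hinge protein, 7330 and 5504 (0.41). Uqcrb read 6886 and 4543 (0.60), Uqcr10 2447 and 1642 (0.58) and Uqcrq 1265 and 976.0 (0.37). The median of the 9 genes was 0.52.

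In complex IV, 11 of the 13 genes above the floor differed by less than 2-fold. Among the forms used in most tissues, Cox4i1 read 4238 in mesothelial and 3284 in liver cells (0.37), Cox5b 13192 and 9769 (0.43), Cox6a1 7259 and 5456 (0.41) and Cox7a2 11740 and 9302 (0.34). Cox5a read 4757 and 3328 (0.52), Cox6b1 8727 and 5941 (0.55) and Cox7a2l, which takes part in joining complexes into supercomplexes, 2367 and 1506 (0.65). By the probe sets used, these genes all lay below the median of all genes, 0.66, with Cox7a2l nearest to it. Some of their other probe sets lay above it, giving 1.204 and 1.249 for Cox5a, 0.996 for Cox6b1 and 0.744 for Cox7a2l. The remaining probe sets of these genes lay below it. Cox6c was further up at 5580 and 2982 (0.90), and Cox8a further down at 1410 and 1568 (-0.15). The median over the 13 genes above the floor was 0.43.

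Cox7c had the largest difference of the 83 genes on the mesothelial side. It read 478.1 in mesothelial and 112.9 in liver cells, 4.23-fold higher, and its second probe set gave 74.0 and 12.2, a difference of 2.60. That second probe set reached the floor on the mesothelial array alone, and its liver value was near the control level of 10.5. Cox7c was the one respiratory chain gene past 4-fold on the mesothelial side, against 15.9% of all genes above the floor (liver side 1.07%). By the probe sets used, no other gene of complex IV above the floor was past 2-fold on the mesothelial side (background 45.4%). With the median over a gene's probe sets, Cox5a and Cox6c were past 2-fold there too (background 39.1%).

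The tissue forms of complex IV subunits were dim. Cox4i2, a form known from lung and oxygen-sensing cells, read 36.1 in mesothelial and 15.3 in liver cells. The heart and skeletal muscle forms Cox7a1, Cox8b and Cox6a2 read 39.7 and 19.0, 35.7 and 12.2, and 91.6 and 63.7. Of these 4, Cox6a2 alone reached the floor. All 4 were brighter in mesothelial cells, by 0.52 to 1.55, as were 77.6% of all genes, whose median was 0.66. The liver values of Cox8b and Cox4i2 were near the control level of 10.5. Among 10 striated muscle markers above the floor, 8 were past 2-fold on the mesothelial side (background 45.4%) and 1, Acta1, on the liver side (background 3.83%). The 12 measured summed to 4211 and 976. Their part in these values was not tested. The testis forms differed from these. Cox6b2 read 1679 and 1623, a level well above the floor on both arrays, Cox8c 26.6 and 30.1, and Cox7b2 10.8 and 50.9. Cox7b2 was at the control level in mesothelial cells, so it was at least 3.14-fold higher in liver, and it passed the floor on the liver array alone from a single probe set.

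**Figure D2:**
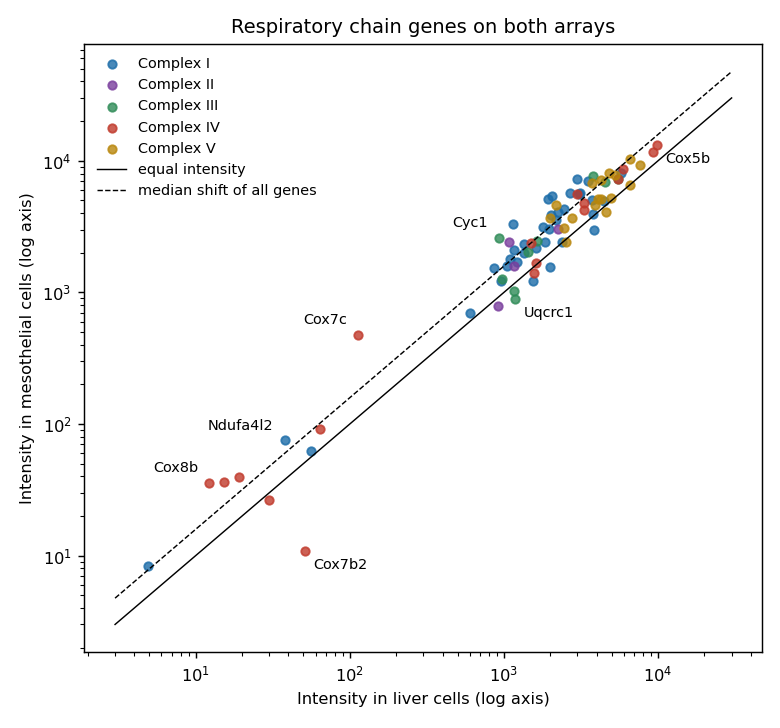
Intensity of each of the 83 genes in mesothelial cells (vertical) against liver cells (horizontal), both on log axes and coloured by complex. The solid line marks equal intensity and the dashed line the 1.58-fold shift of the median gene. Most genes read above 500 on both arrays, and 71 of the 83 (85.5%) lie above the solid line, as do 77.6% of all genes.

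Complex V had the lowest median, 0.34 over its 17 genes, all of which were above the floor. That place was not stable. With the median over a gene's probe sets complex II was lower (0.32, against 0.37 for complex V). It was also lower without probe sets that may bind several transcripts (0.13 against 0.34) and after quantile normalization (-0.28 against -0.23). In the F1 head, where ATP is made, Atp5a1 (the alpha subunit) read 10374 in mesothelial and 6533 in liver cells (0.67), and Atp5b (beta), its partner at the catalytic sites, 5206 and 4919 (0.08). Atp5c1 (gamma, the rotating shaft) read 8096 and 4804 (0.75), Atp5d (delta) 7093 and 4286 (0.73) and Atp5e (epsilon) 4627 and 3871 (0.26). The other probe set of Atp5d gave 0.008. The 5 F1 genes had a median of 0.67. The 4 genes for the peripheral stalk, which holds the head still, had a median of -0.03. Atp5pb read 4105 and 4589 (-0.16), Atp5j 2424 and 2537 (-0.07) and Atp5h 6534 and 6535 (0.00), while Atp5o, which ties the stalk to the head, read 6821 and 3744 (0.87). The probe sets of Atp5pb did not agree, the other giving 0.71.

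The 3 Atp5g genes encode one and the same mature c subunit of the rotor ring, with different import sequences. Atp5g3 read 9298 in mesothelial and 7681 in liver cells (0.28), Atp5g1 5093 and 4047 (0.33) and Atp5g2 3650 and 1982 (0.88). Among the membrane subunits, Atp5md, which helps to keep synthase dimers together, read 4632 and 2185 (1.08) and was the one gene of complex V past 2-fold. The other 4 lay between 0.25 for Atp5k and 0.56 for Atp5j2. No gene of the complex was past 2-fold on the liver side (background 3.83%, and 45.4% on the mesothelial side).

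How far the probe sets of one gene differ sets a limit on these orders. Of the 83 genes, 45 had at least 2 probe sets above the floor, 114 in all, and the pooled SD between probe sets of one gene was 0.43. The SD between genes was 0.57 over the 78 above the same floor. It was 0.48 over the 74 that also passed a floor at the 75th percentile, which was not applied to the 0.43. The spread between probe sets was not small beside either, so the order of most genes within a complex is not settled by these values. The SD between probe sets compares them on the same 2 arrays and holds no variation between embryos, sorts or amplifications. The median range was 0.48, and it exceeded 1 for 6 genes, reaching 2.00 for Ndufs8. In 21 of the 45 genes the probe sets lay on both sides of the median of all genes, in 12 all lay below it and in 12 all above it. Of the 10 genes past 2-fold, 8 had several probe sets, and all of them passed only for Cox7c and Ndufb5. The other 6 were split, and Cyc1 and Atp5md had 1 probe set. For Cox7c the second probe set reached the floor on the mesothelial array alone.

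Probe sets at the ends of control transcripts differed too. For Actb the difference was 0.31 with the 3′ probe set and -0.32 with the 5′ one, for Gapdh 0.58 and 0.44, and for Tfrc, a transferrin receptor that red cell precursors use, -0.99 and -2.91. The part of this in the disagreement between probe sets was not tested.

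The respiratory chain genes were also bright, and on these arrays the difference changed with brightness. Over all genes the median difference was 0.22 at a mean log2 intensity up to 5, 0.83 at 5 to 6, 1.07 at 6 to 7, 0.83 at 9 to 10, 0.81 at 10 to 11, 0.63 at 11 to 12 and 0.47 above 12. Respiratory chain genes had -0.23 in the range from 9 to 10 (3 genes), 0.53 in the range from 10 to 11 (22 genes), 0.67 from 11 to 12 (22 genes) and 0.46 above 12 (26 genes). From 11 upward the respiratory chain genes were thus close to all genes of the same brightness, and from 9 to 11 they were lower. Dimmer ranges held few of them. Their median was 0.91 up to 5 (6 genes), 0.58 at 5 to 6 (2 genes) and 0.52 at 6 to 7 (1 gene). At 7 to 8 it was 2.08 (1 gene), against 0.98 for all genes. They were thus higher than all genes up to 5 and at 7 to 8, and lower from 5 to 7.

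**Figure D3:**
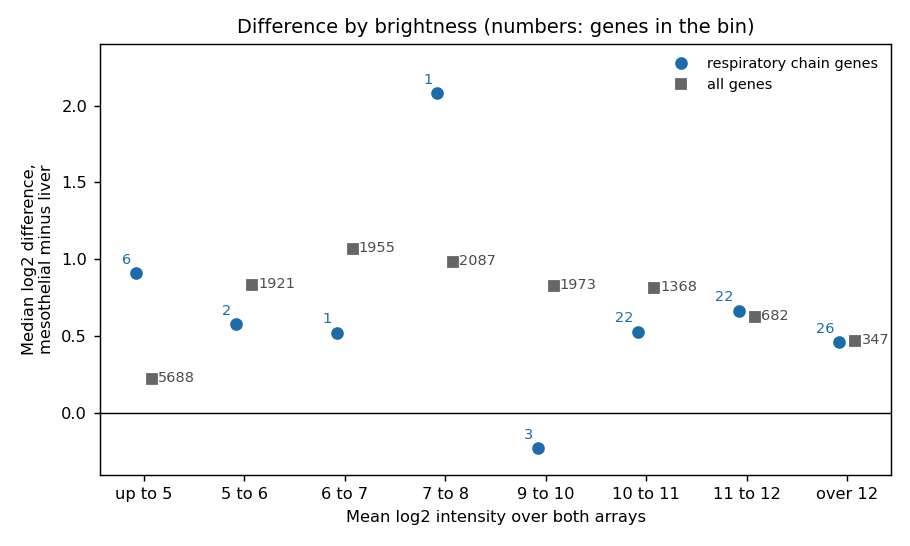
Median log2 difference, mesothelial minus liver, by mean log2 intensity over both arrays, for respiratory chain genes (circles, left) and all genes (squares, right), with the number of genes beside each point. Ranges without a respiratory chain gene are not drawn. From 11 upward both sets lie close together.

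Other mitochondrial genes were set beside them. Of the 15 complex I assembly genes, 3 were past 2-fold on the mesothelial side (background 45.4%) and 0 on the liver side (background 3.83%), with a median of 0.40. The largest was Timmdc1, which helps to build the membrane arm, at 850.9 in mesothelial and 200.1 in liver cells. Of 25 assembly genes of complexes II to IV, 9 were past 2-fold on the mesothelial side and 0 on the liver side (same backgrounds, median 0.63). They included Bcs1l, which inserts the Rieske protein into complex III, at 1151 and 413.6, and Cox10, which helps to make the haem of complex IV, at 289.2 and 124.6. The copper chaperone gene Cox17 was on the other side of 0, at 1827 and 1984.

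Of 19 genes of the citric acid cycle and pyruvate oxidation, 5 were past 2-fold on the mesothelial side and 1 on the liver side, with a median of 0.65. Idh3g, a subunit of isocitrate dehydrogenase, read 5561 in mesothelial and 2413 in liver cells (1.20), and the one on the liver side, the pyruvate carboxylase gene Pcx, 143.0 and 315.3 (-1.14). Of 11 genes of coenzyme Q synthesis 2 were past 2-fold on the mesothelial side and 0 on the liver side (median 0.48), and of 17 genes of protein import 3 and 0 (median 0.33). Mitochondrial ribosomal protein genes had a median of 0.25 over 76 genes, 10 of them past 2-fold on the mesothelial side and 0 on the liver side. Cytosolic ribosomal protein genes had 0.16 over 40 genes above the floor, 3 of them past 2-fold on the mesothelial side and 0 on the liver side. Against the 45.4% of all genes, the share past 2-fold in mesothelial cells was thus lower in each of these lists. On the liver side the share of all genes was 3.83%. Whether the respiratory chain genes differ from them was not tested, for want of replicates.

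**Figure D4:**
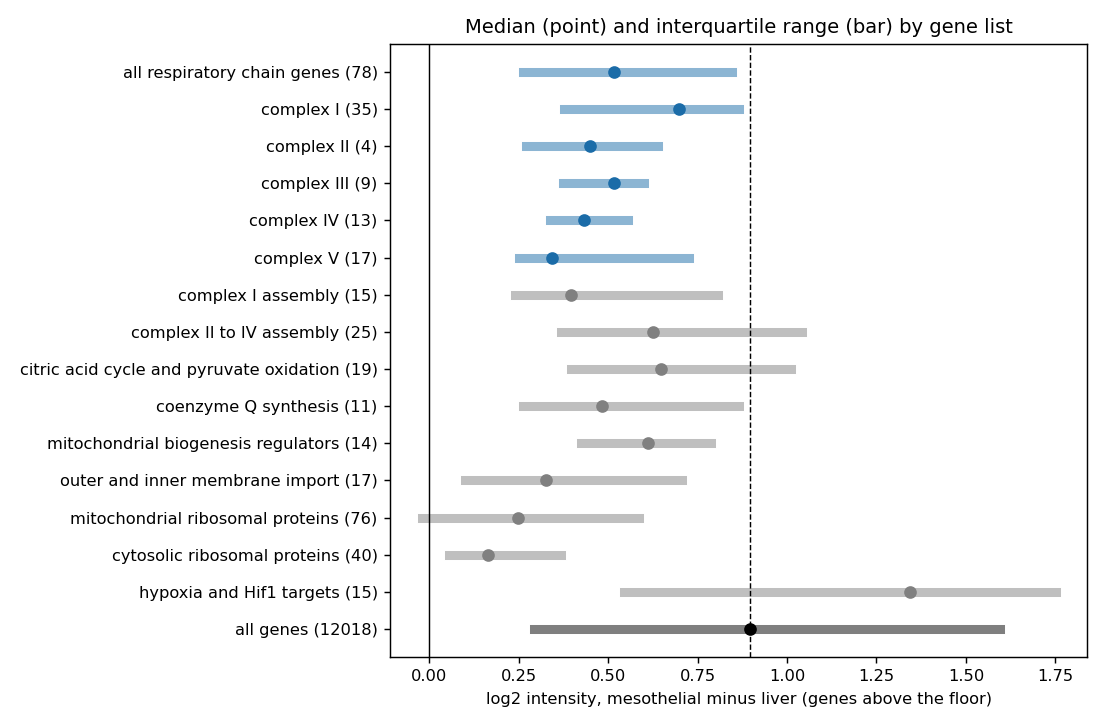
Median (point) and interquartile range (bar) of the log2 difference, mesothelial minus liver, over genes above the floor, with their number in brackets, and all genes in the lowest row. The 5 complexes have medians from 0.34 to 0.70, left of the 0.90 of all genes above the floor (dashed line).

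Regulators of mitochondrial gene expression were measured too. Nrf1, which with the ETS protein Gabpa is known to drive many respiratory chain genes, read 500.1 in mesothelial and 425.9 in liver cells (0.23), and Gabpa 704.9 and 488.0 (0.53). Tfam, which packs mitochondrial DNA, read 1305 and 778.4 (0.75). Ppargc1a, a coactivator of Nrf1, read 215.8 and 163.3 (0.40), and its relative Ppargc1b 149.2 and 41.2 (1.86). Ppargc1b reached the floor on the mesothelial array alone. The largest difference was that of Polrmt, the mitochondrial RNA polymerase, at 937.2 and 124.8 (2.91), and its second probe set gave 1.73. Of 14 regulators above the floor, 3 were past 2-fold on the mesothelial side and 0 on the liver side (backgrounds 45.4% and 3.83%), with a median of 0.61.

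Promoters of the genes were searched for the letters these factors are known to bind, on both strands of 300 bases around each start, 250 before it and 50 after (RefSeq, GRCm38.p6). Windows were found for 67 of the 83 genes. The Nrf1 letters GCGCANGCG stood in 18 of the 67 genes (26.9%), in 14.9% of the genes above the floor and in 7.03% of all genes in the table. The ETS letters CCGGAAG stood in 17 (25.4%), against 19.4% and 9.93%, and the letters AAGATGGCG, bound by the zinc finger protein YY1, in 6 (8.96%), against 3.55% and 1.64%. TATAAA stood in 8 (11.9%), against 9.35% and 15.7%. In the windows of respiratory chain genes 0 matches of Nrf1, ETS and YY1 letters overlapped one of another kind. The median difference was 0.34 over the 17 genes above the floor with the Nrf1 letters and 0.55 over the 47 without. With the ETS letters it was 0.34 and without them 0.58, with the YY1 letters 0.46 and 0.50, and with TATAAA 0.86 and 0.48. These are matches of letters and were not shown to be bound here.

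The windows of 6 genes are printed to show the promoters at both ends of the range of differences and those with the most matches, each 5′ to 3′ on the gene's strand with Nrf1, ETS and YY1 letters in capitals. They were taken from genes with 1 window that passed the floor at the 75th percentile. Matches on both strands were counted, also where they overlap. At the high end, Cox7c (chr13:86046746-86047045, minus strand) holds 0 matches and Ndufb6 (chr4:40279372-40279671, minus strand) 1 ETS match. At the low end, Uqcrc1 (chr9:108936398-108936697, plus strand) holds 3 Nrf1 matches and Ndufb10 (chr17:24724374-24724673, minus strand) 1. Cox6a1 (chr5:115348909-115349208, minus strand, 3 Nrf1 and 1 ETS matches) and Atp5k (chr5:108434350-108434649, minus strand, 2 Nrf1 and 1 ETS matches) are among those with the most.
Cox7c: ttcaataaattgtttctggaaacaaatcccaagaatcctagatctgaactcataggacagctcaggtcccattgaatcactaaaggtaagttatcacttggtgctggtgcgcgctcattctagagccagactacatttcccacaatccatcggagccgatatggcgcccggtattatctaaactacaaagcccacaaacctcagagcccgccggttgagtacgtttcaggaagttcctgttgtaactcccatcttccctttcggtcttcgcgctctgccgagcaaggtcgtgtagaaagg
Ndufb6: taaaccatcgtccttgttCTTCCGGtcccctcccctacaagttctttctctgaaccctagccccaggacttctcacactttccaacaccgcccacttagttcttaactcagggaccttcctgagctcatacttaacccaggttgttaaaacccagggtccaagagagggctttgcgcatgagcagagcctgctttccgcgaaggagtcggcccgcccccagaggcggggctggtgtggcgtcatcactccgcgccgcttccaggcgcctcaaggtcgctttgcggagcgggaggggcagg
Uqcrc1: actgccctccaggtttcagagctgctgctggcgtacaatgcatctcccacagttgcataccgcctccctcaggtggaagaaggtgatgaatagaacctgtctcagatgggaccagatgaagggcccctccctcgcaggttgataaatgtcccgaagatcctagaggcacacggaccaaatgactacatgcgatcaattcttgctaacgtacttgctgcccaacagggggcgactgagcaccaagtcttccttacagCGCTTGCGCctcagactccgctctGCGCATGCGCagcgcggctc
Ndufb10: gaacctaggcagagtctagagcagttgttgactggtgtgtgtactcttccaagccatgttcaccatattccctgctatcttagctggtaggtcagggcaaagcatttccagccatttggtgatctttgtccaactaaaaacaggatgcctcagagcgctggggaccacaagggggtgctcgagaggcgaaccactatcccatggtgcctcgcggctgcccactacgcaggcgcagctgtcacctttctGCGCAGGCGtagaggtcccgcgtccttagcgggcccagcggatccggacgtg
Cox6a1: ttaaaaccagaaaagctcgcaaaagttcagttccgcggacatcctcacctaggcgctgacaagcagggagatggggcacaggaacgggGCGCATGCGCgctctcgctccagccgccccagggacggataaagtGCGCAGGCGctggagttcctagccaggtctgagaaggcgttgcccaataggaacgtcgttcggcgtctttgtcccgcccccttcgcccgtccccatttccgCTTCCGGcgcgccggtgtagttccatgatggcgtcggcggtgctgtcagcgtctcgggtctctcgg
Atp5k: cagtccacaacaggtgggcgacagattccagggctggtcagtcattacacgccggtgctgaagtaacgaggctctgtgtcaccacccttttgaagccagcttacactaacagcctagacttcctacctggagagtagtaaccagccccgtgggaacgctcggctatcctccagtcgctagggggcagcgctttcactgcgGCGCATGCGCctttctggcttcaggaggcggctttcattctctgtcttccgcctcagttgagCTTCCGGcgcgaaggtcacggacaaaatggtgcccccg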

How the data were processed

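Affymetrix Mouse Genome 430 2.0 arrays were used, per the series design text. Livers were dissociated with trypsin-EDTA before sorting, per the same text, and 20 ng of total RNA per sample was amplified and biotin-labelled with NuGEN Ovation kits, per the labels' protocols. The deposited values are intensities on a linear scale, as the values themselves show; RMA and Partek are named, without version or role, in the submitters' processing notes, and the sources used here do not give the scaling between arrays. A free-text label that fits neither the species nor the stated age was not used.

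Values were put on the log2 scale. A gene took its probe set with the highest mean over both arrays. Gene names came from GEO's platform annotation, and all 170 probe sets of the members matched RefSeq (GRCm38.p6) gene IDs and 0 were renamed. With 1 array a group no test was run; counts at a 2-fold difference, medians and ranges are given. Every respiratory chain gene could be named; of other lists up to 4 genes furthest each way are named, and Gabpa and Tfam, chosen for their known roles after their values were seen. Members and lists were chosen with earlier results of these data known, the ribosomal lists and the promoter windows after the values were seen. Nrf1 and YY1 letters were first searched in a form 1 base longer, which is not reported. Calculations used Python 3.11.15 and pandas 2.3.3 and were tested on simulated data. The number of arrays limits the precision.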

Additional observations from a re-analysis of the deposited data

How the results depend on the processing

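The median over the respiratory chain genes, 0.52, was 0.48 both with the median over probe sets and without probe sets ending in _x_at or _s_at, and 0.52 without a floor, with a floor at the 75th percentile and with low values raised to the control level. Scaling changed its sign. With each array centred at its probe set median it was -0.12 over all genes of the chain, and 0.062, -0.19, -0.12, -0.20 and -0.29 for complexes I to V. Quantile normalization gave -0.073, and 0.039, -0.28, -0.15, -0.071 and -0.23. Centring on the reference genes, of which Sdha is one, gave -0.44, and -0.25, -0.50, -0.44, -0.52 and -0.61. Centring on the hybridisation controls, chosen after seeing the data, gave -0.56, and -0.38, -0.63, -0.56, -0.64 and -0.73. Relative to the median of all genes, the median of the chain lay between -0.15 and -0.08 in the 6 alternatives that do more than shift an array. That median is over all 18193 genes; relative to genes held to the same floor it was -0.38, and -0.32 with the floor at the 75th percentile. The number at least 2-fold higher in mesothelial cells was 1 with each of these scalings and 1 at a 4-fold threshold, and 10 to 13 otherwise. The number at least 2-fold higher in liver cells was 3, 6, 10 and 14 with these scalings in the order given, and 0 with a floor at the 75th percentile. With the 3 ways of treating probe sets, 5 genes were past 2-fold in mesothelial cells each time: Atp5md, Cox7c, Cyc1, Ndufb5 and Ndufv1. No paired analysis was possible because each group has 1 array. Genes near the control level, such as Cox7b2, are limited by signal over background.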

Other observations

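Of 10 genes above the floor for electron carriers and carriers of ATP and phosphate, 2 were past 2-fold on the mesothelial side (background 45.4%) and 0 on the liver side (background 3.83%), with a median difference of 0.20. Slc25a4, the ADP/ATP carrier of heart and skeletal muscle, read 5547 in mesothelial and 1960 in liver cells, 2.83-fold higher, and its 3 probe sets above the floor gave 1.43 to 1.85. Among 10 striated muscle markers above the floor, 8 were past 2-fold on the mesothelial side (background 45.4%) and 1 on the liver side (background 3.83%). The 12 measured summed to 4211 on the mesothelial array and 976 on the liver array. Their part in the value of Slc25a4 was not tested. Slc25a5, the carrier of growing cells, read 5982 and 6576 (-0.14), and its 8 probe sets gave -0.23 to 0.37. Cytochrome c (Cycs) read 2270 and 2985 (-0.40), but its other probe sets above the floor gave 0.37 and 1.17.

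A list of 15 genes held targets and regulators of the response to low oxygen. Of these, 9 were past 2-fold on the mesothelial side (background 45.4%) and 0 on the liver side (background 3.83%). Their median difference was 1.34 as deposited, against 0.90 over all genes above the floor. Relative to the median of all genes the counts were 6 (background 23.1%) and 1 (background 9.53%). Egln3, an oxygen-dependent hydroxylase, read 383.7 in mesothelial and 37.1 in liver cells, and Car9, a carbonic anhydrase, 106.8 and 21.3. Both reached the floor on the mesothelial array alone. The glucose transporter gene Slc2a1, which red cell precursors also express, was on the other side of 0, at 5592 and 7385.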
